A study of Homo sapiens with 30 samples.

Results

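The CCAAT/enhancer binding protein (C/EBP) genes CEBPA, CEBPB, CEBPD and CEBPG were followed through 30 libraries of nascent RNA. They were found by gene name in the deposited count table, where they take 4 of the 58780 rows, and all 4 passed the filter on low counts. The libraries come from precision run-on sequencing (PRO-seq) of A549, an established human lung adenocarcinoma line. In PRO-seq, RNA polymerases already engaged on the genome in permeabilised cells add labelled nucleotides, so that the recovered RNA reports transcription in progress rather than stored transcripts. The title of the series places the work in a study of PRMT5, an arginine methyltransferase, and of how messenger RNA leaves chromatin.

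The cells were compared in 15 groups of 2 libraries. Dexamethasone (Dex), a synthetic ligand of the glucocorticoid receptor, was used at 100 nM. GSK591, an inhibitor of PRMT5, and MS023, an inhibitor of the Type I arginine methyltransferases, were each used at 1 µM. The groups were untreated cells, Dex for 15 min, Dex for 3 h, Dex with GSK591 for 3 h, Dex with MS023 for 3 h, GSK591 for 2, 4 or 7 days, MS023 for 2, 4 or 7 days, and 7 days of either inhibitor followed by Dex for 15 min or 3 h. All cells, the untreated ones included, received 0.01% DMSO. The untreated cells carry a 15 min label and are the only control, so a comparison with them at 2 to 7 days also compares different lengths of culture. The labels name replicates but do not say that these came from separate cultures, so p-values measure the spread between these libraries, which may be technical.

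C/EBP proteins bind DNA through a basic region and pair through a leucine zipper, as homodimers or with one another. CEBPA is known as a differentiation factor that restrains proliferation in liver, fat, myeloid and lung epithelial cells. CEBPB and CEBPD are known as rapidly induced factors of the acute phase and inflammatory response, and both are established glucocorticoid-responsive genes in airway cells. CEBPG lacks a strong activation domain of its own and works mainly as a dimer partner, among others of ATF4.

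The upstream sequences of CEBPB, which changed in every treated group, and of CEBPA, which changed in few, are shown for comparison. They are the 250 bases before the RefSeq start on GRCh38.p14, read 5′ to 3′ on the gene's strand. CEBPB lies on the plus strand at chr20:50190580-50190829 and CEBPA on the minus strand at chr19:33302535-33302784. Capitals mark TATAAA as the TATA box, the box named for its letters CCAAT, or TGACG, the core of the cyclic AMP response element. GENCODE 29 begins both genes upstream of the RefSeq starts used, inside these windows.
CEBPB: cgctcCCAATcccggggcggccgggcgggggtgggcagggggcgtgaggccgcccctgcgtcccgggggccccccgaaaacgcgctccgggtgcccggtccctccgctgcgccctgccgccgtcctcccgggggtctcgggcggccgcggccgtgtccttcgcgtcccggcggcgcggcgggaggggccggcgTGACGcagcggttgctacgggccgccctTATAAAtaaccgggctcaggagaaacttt
CEBPA: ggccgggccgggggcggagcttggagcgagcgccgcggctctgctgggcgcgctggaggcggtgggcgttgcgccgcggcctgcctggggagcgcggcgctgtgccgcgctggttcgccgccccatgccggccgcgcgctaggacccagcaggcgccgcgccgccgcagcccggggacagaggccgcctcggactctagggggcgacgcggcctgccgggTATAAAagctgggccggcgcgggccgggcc

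Both windows hold a TATA box close to the start, 29 bases upstream in CEBPB and 30 in CEBPA. The CEBPB window also holds the cyclic AMP element core at -57 and a CCAAT box at -245, which the CEBPA window lacks. GC boxes (GGGCGG, left in lower case) number 5 in CEBPB and 2 in CEBPA. Motifs were searched on both strands in windows that reach 50 bases past the start, and of the 35116 such RefSeq windows used here 11.5% hold TATAAA, 34.6% CCAAT, 24.6% TGACG and 45% GGGCGG. Windows on chromosome 8 were left out of those used here, so CEBPD, which lies there, was not searched. The other 3 of the 4 genes had 5 windows, 2 each for CEBPB and CEBPG. The CEBPB window not shown, chr20:50190333-50190582 before its start, held no TATAAA and no TGACG, and no CCAAT before the start. None of the 5 held AGAACA, the core of a glucocorticoid response element (in 14.8% of windows), the C/EBP palindrome (TTGCGCAA, 0.151%), its looser form TTNNGNAA (36.8%) or the full cyclic AMP element TGACGTCA (1.85%). A full glucocorticoid response element and a looser version of it, which are present in 0.00285% and 0.390% of windows, were likewise not found in them. The cores lie within the full elements and the palindrome fits the looser form, so these searches overlap, and they say only that the letters are not in these windows.

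Libraries held 8441211 to 13069598 counts, with a median of 10141640. Mitochondrial genes took 58.7% to 78.7% of them, which left 2497281 to 3934713 counts outside mitochondrial and ribosomal RNA genes. The lowest share of mitochondrial counts belonged to MS023 groups. Across 11117 genes the replicate pairs correlated with r between 0.923 and 0.983, and the lowest value belonged to Dex with MS023. All 3 genes used to check the Dex labels rose at 3 h, among them FKBP5 from 50 and 52 to 381 and 328 counts. The epithelial keratins KRT8 and KRT18 stood at 199 ± 8.48 and 84.3 ± 4.06 CPM (library-scaled counts, TMM, SD, n = 2) in untreated cells. The epithelial markers EPCAM and CDH1 were low, at 2.04 ± 0.530 and 1.94 ± 0.538 CPM, the leukocyte marker PTPRC had 2 and 0 counts, and the fibroblast markers COL1A1 and DCN stood at 3.25 ± 0.670 and 0.167 ± 0.236 CPM.

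These markers moved with treatment, and not all in the same direction. The epithelial marker KRT19 was called lower at 3 h of Dex (log2 -0.64, adjusted p = 0.0173, edgeR). It was called higher after 7 days of GSK591 and of MS023 (log2 1.32 and 0.61). KRT8 and KRT18 were called higher than in untreated cells in 7 of 14 treated groups, among them all 5 with 3 h of Dex (log2 0.93 and 0.61 for Dex alone, edgeR), EPCAM in all 3 groups with MS023 alone (log2 0.95 to 1.54) and CDH1 at 4 and 7 days of GSK591 (1.51 and 1.18). The summed group means of the 5 epithelial markers ran from 255 CPM at 4 days of GSK591 to 639 CPM in MS023 with Dex, with 300.5 CPM in untreated cells. Of the 4 markers of other cells only COL1A1 was called, at 7 days of MS023 (log2 1.14, adjusted p = 0.00108, edgeR) and in the groups of MS023 then Dex at 15 min and 3 h (1.23 and 0.91). Their summed means were 3.27 to 5.77 CPM in the other 12 groups and 6.84 to 8.54 CPM in these 3. PTPRC, PECAM1 and DCN had at most 15 counts in a library, with PTPRC at 0 in both libraries of Dex 3 h and of MS023 7 d and DCN at 0 in those of GSK591 2 d, MS023 2 d and GSK591 7 d. The part of these markers in the results on CEBPB, CEBPD, CEBPA and CEBPG was not tested.

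Per kilobase of exon, a scale that adjusts for exon length only, CEBPA led in untreated cells. It stood at a mean of 30.7 CPM per kb, before CEBPD at 21.1, CEBPB at 17.2 and CEBPG at 6.37. Of the summed level of these genes, 40.8% belonged to CEBPA, 28.0% to CEBPD, 22.8% to CEBPB and 8.46% to CEBPG. Whether exons or whole genes were counted is not stated, and per kb of the whole gene CEBPG, the only 1 of them with introns, would stand at 3.00 CPM per kb and 4.17%. After 3 h of Dex the summed level stood at 146 CPM per kb against 75.3 in untreated cells, and CEBPB held 41.5% of it and CEBPA 24.3%. After 7 days of MS023 followed by 3 h of Dex the sum was 165 CPM per kb, and CEBPD held the most, 40.6%. CEBPG held between 3.47% and 8.46% in the 15 groups. The bars of summed level show CEBPB and CEBPD widening in every treated group while CEBPG stays a thin layer.

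**Figure D1:**
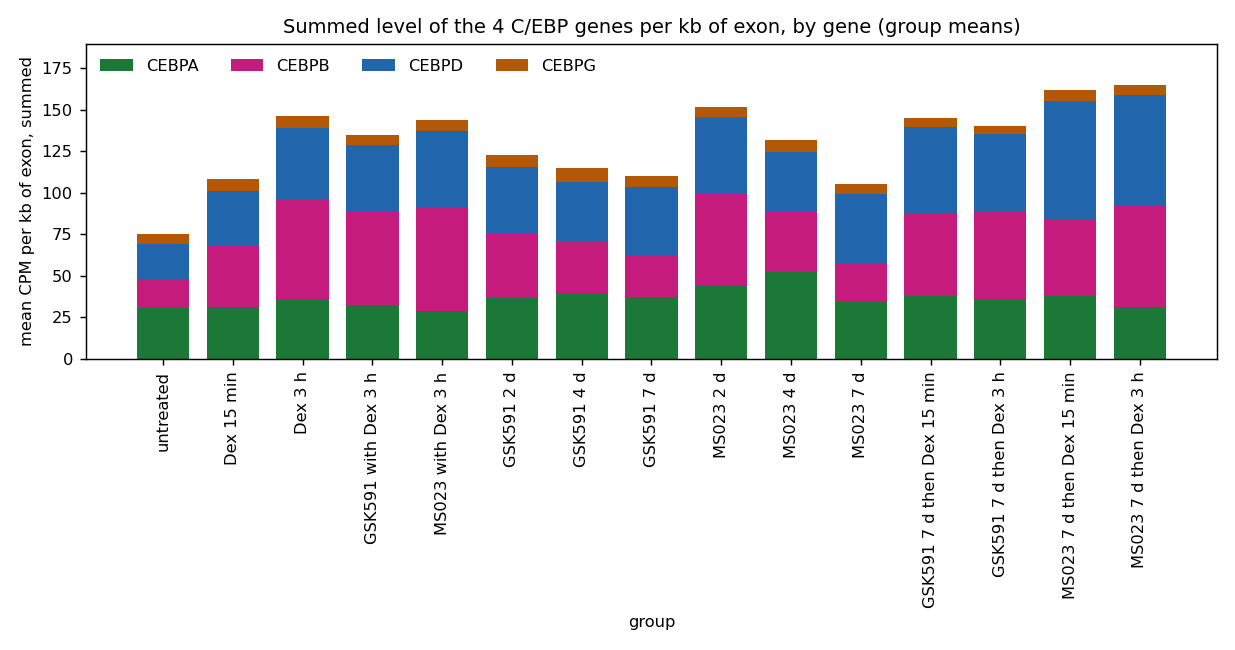
Mean level of CEBPA, CEBPB, CEBPD and CEBPG per kb of exon (CPM per kb, stacked bars, linear axis from 0) in the 15 groups. The sum stood at 75.3 in untreated cells, 146 after 3 h of Dex and 165 after 7 days of MS023 then 3 h of Dex.

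CEBPB (ENSG00000172216.5, GRCh38 chromosome 20, 50190734 to 50192689, plus strand in GENCODE 29) is a gene of 1 exon of 1956 bases. Its exon shares 231 bases with the antisense gene CEBPB-AS1, and since the use of strand in counting is not stated, reads of the pair may not be told apart over that 11.8% of the exon. CEBPB was lowest in untreated cells, at 35.0 and 32.1 CPM in the 2 libraries, from 315 and 319 counts. All 28 treated libraries lay above both of these. In all 14 comparisons with untreated cells CEBPB rose, by 1.29- to 3.62-fold. The same 2 untreated libraries serve all 14 comparisons, so these are not independent of each other. How many of all genes show this pattern was not counted.

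CEBPD (ENSG00000221869.4, chromosome 8, 47736909 to 47739086, minus strand) has 1 exon of 2178 bases that no other annotated exon overlaps. SPIDR, a DNA repair gene, starts 602 bases away on the opposite strand. CEBPD too was lowest in untreated cells, at 44.6 and 47.2 CPM from 401 and 468 counts. All 28 treated libraries lay above these values, and CEBPD rose in all 14 comparisons, by 1.58- to 3.38-fold. The comparisons of CEBPD share the untreated libraries too, and no count over all genes was made.

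CEBPA (ENSG00000245848.2, chromosome 19, 33299934 to 33302564, minus strand) has 1 exon of 2631 bases, of which 25% is shared with the antisense gene AC008738.3 and 18.3% with AC008738.5, so its counts carry the same uncertainty about strand. It stood at 76.3 and 85.3 CPM in untreated cells, from 686 and 847 counts. CEBPA was called, at an adjusted p below 0.05, in 2 of the 14 comparisons with untreated cells, both with MS023 and both higher. Its fold change ran from 0.926 to 1.70. Across these 14 comparisons 1.26% to 26.8% of all genes were called.

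CEBPG (ENSG00000153879.8, chromosome 19, 33373330 to 33382686, plus strand) lies 70765 bases from CEBPA and has 4411 bases of exon in 3 blocks, with no overlapping exon of another gene. It stood at 25.6 and 30.6 CPM in untreated cells, from 230 and 304 counts. Of the 14 comparisons it was called higher in 1 and lower in 1, with folds from 0.764 to 1.33. The share of all genes called in the same 14 comparisons ran from 1.26% to 26.8%. In the plot of levels by library, CEBPB and CEBPD have no treated point at or below their untreated points, while those of CEBPG lie on both sides.

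**Figure D2:**
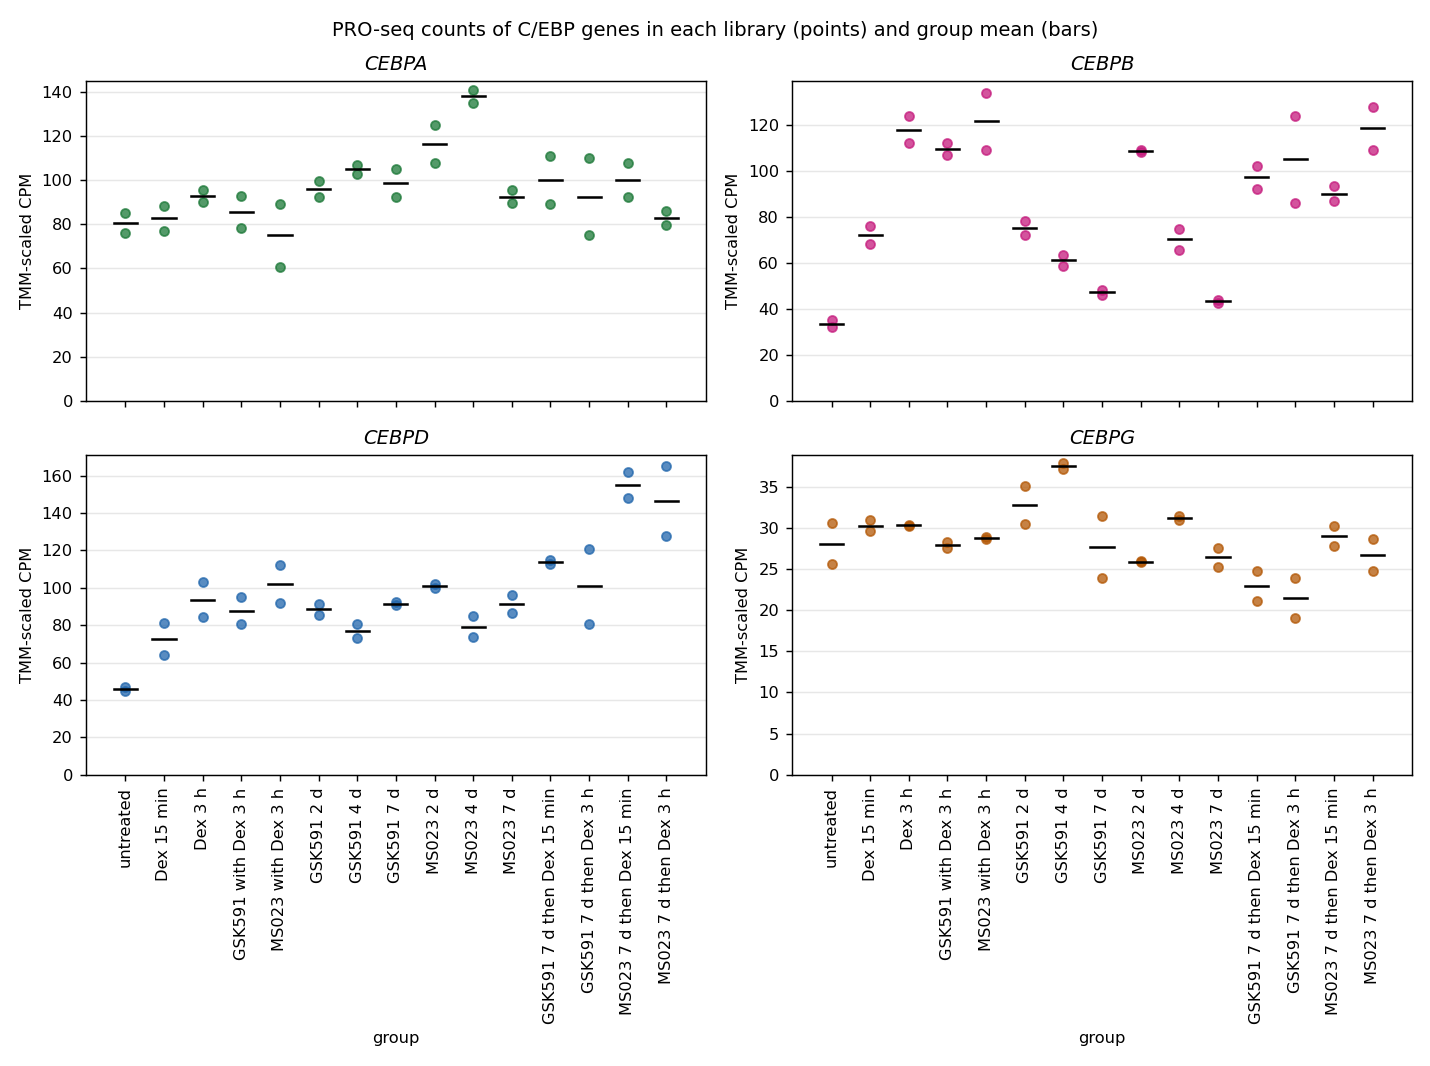
TMM-scaled CPM of each gene (y axis, linear from 0) in the 2 libraries of each of 15 groups (points) with the group mean (bar). All 28 treated libraries of CEBPB and of CEBPD lie above their 2 untreated libraries, a pattern not counted over all genes.

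Dex alone raised CEBPB and CEBPD and left CEBPA and CEBPG without a called change. At 15 min CEBPB stood at 76.2 and 68.0 CPM and at 3 h at 112 and 124 CPM. The 3 groups of CEBPB, untreated cells included, thus did not overlap, a pattern not counted over all genes. In bulk libraries such as these, a rise in all cells and a larger rise in some of them cannot be told apart. Its log2 fold change was 1.10 at 15 min (SE 0.128, adjusted p = 3.04e-08, edgeR) and 1.81 at 3 h (SE 0.128, adjusted p = 2.01e-15, edgeR), that is 2.15- and 3.52-fold. Between 15 min and 3 h CEBPB rose by a further 1.64-fold (log2 0.71, adjusted p = 3.19e-05, edgeR), a call that was lost with total counts in place of TMM as the scaling (log2 0.57, adjusted p = 0.126).

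CEBPD stood at 81.0 and 63.9 CPM at 15 min and at 84.2 and 103 CPM at 3 h. The rise against untreated cells was 1.58-fold at 15 min (log2 0.66, SE 0.163, adjusted p = 0.0420, edgeR) and 2.04-fold at 3 h (log2 1.03, SE 0.163, adjusted p = 8.96e-05, edgeR). The call at 15 min was lost with the replicate number as a block (adjusted p = 0.0812), without untreated replicate 1 (0.479) or 2 (0.244) and without replicate 1 of the Dex group (0.527), where CEBPD fell to a log2 fold change of 0.48. From 15 min to 3 h the difference of CEBPD was not called (log2 0.37, adjusted p = 0.150, edgeR). So 2 of these genes were called at 15 min, where 1.26% of all 22919 genes tested were called, 2 at 3 h, where the share was 10.5%, and 1 between these times, beside 10.8%.

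CEBPA, at 88.3 and 77.1 CPM after 15 min and 90.1 and 95.7 CPM after 3 h, had log2 fold changes of 0.03 and 0.20 (95% intervals -0.31 to 0.38 and -0.14 to 0.54). CEBPG had 29.6 and 30.9 CPM at 15 min and 30.4 and 30.2 CPM at 3 h, with log2 fold changes of 0.10 and 0.11. Neither gene was called at either time (adjusted p from 0.527 to 0.998, edgeR), and the intervals leave room for changes of CEBPA of up to about 0.54 on the log2 scale.

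**Figure D3:**
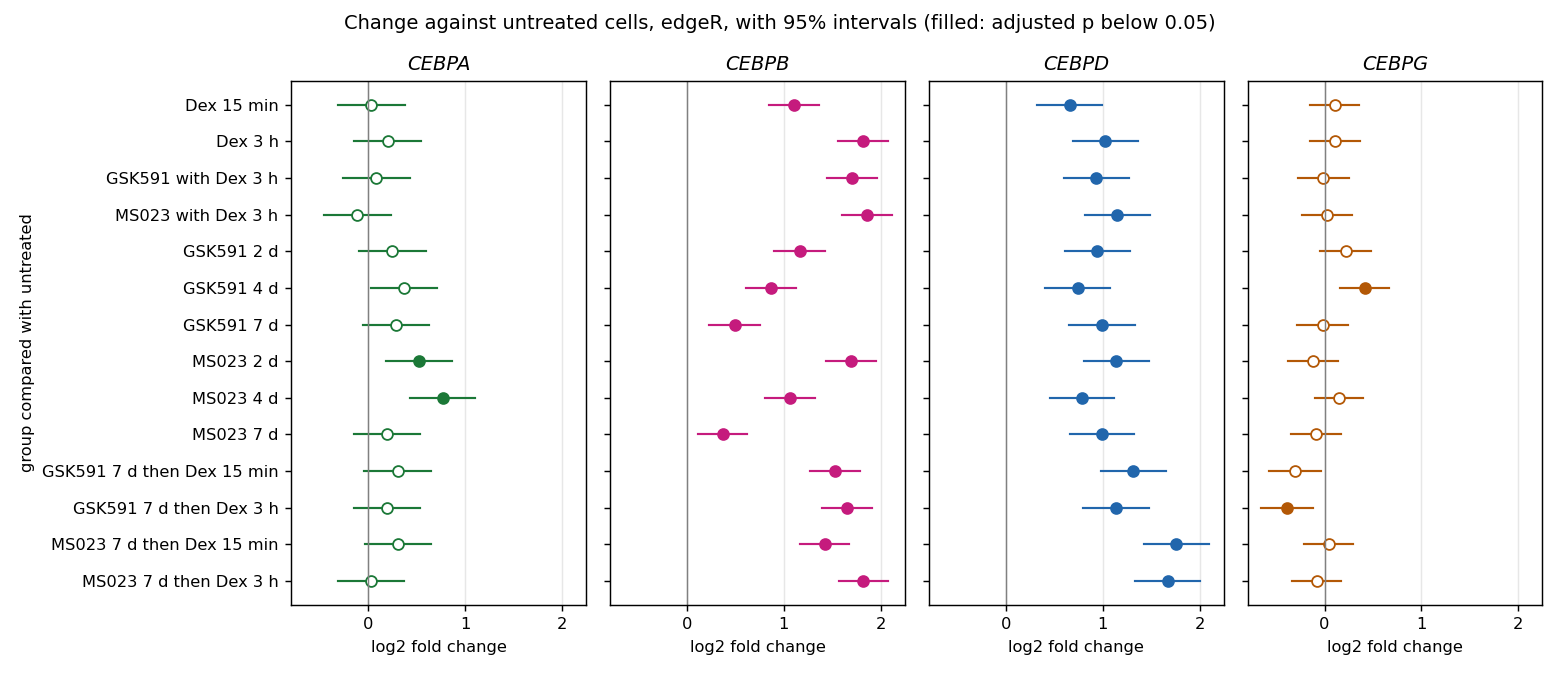
Log2 fold change against untreated cells (x axis) with its 95% interval (line) for 14 treated groups and 4 genes. Filled points have an adjusted p below 0.05, which all 14 points of CEBPB and of CEBPD have, 2 of CEBPA and 2 of CEBPG.

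GSK591 alone raised CEBPB most at its earliest time. CEBPB stood at 78.4 and 71.9 CPM after 2 days, 58.7 and 63.5 CPM after 4 days and 48.1 and 46.2 CPM after 7 days. These groups of CEBPB did not overlap with one another or with the untreated libraries, a pattern not counted over all genes. The log2 fold changes against untreated cells were 1.16 (SE 0.128, adjusted p = 5.82e-08, edgeR), 0.86 (SE 0.128, adjusted p = 1.75e-06) and 0.49 (SE 0.131, adjusted p = 0.00742). The steps between successive times were not called, at -0.30 from 2 to 4 days (adjusted p = 0.203, edgeR) and -0.37 from 4 to 7 days (adjusted p = 0.0568), although the second was called in 3 of 7 alternatives, among them total counts (log2 -0.81, adjusted p = 0.00718). The 7 day call was lost without untreated replicate 2 (log2 0.43, adjusted p = 0.116) or GSK591 7 d replicate 1 (0.46, adjusted p = 0.0840).

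CEBPD stood at 91.4 and 85.6 CPM after 2 days of GSK591, 73.0 and 80.8 CPM after 4 days and 92.2 and 90.6 CPM after 7 days. Its log2 fold changes against untreated cells were 0.95, 0.74 and 0.99 (SE 0.163 for each, adjusted p = 0.00102, 0.00215 and 0.000159, edgeR), and neither step between times was called (adjusted p = 0.615 and 0.393). CEBPA had means of 96.1, 105 and 98.7 CPM over the course. None of its differences from untreated cells was called (log2 0.25, 0.37 and 0.29, adjusted p from 0.131 to 0.447, edgeR). The libraries of all 3 groups lay above both untreated libraries, which these comparisons share. That pattern was not counted over all genes.

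CEBPG, the dimer partner, was called at 4 days of GSK591 only among these times. It stood at 37.1 and 37.9 CPM there, its highest group, against 25.6 and 30.6 CPM in untreated cells (log2 0.41, SE 0.126, adjusted p = 0.0167, edgeR). It then fell by 0.43 on the log2 scale to 7 days (adjusted p = 0.0249, edgeR), where its libraries stood at 31.5 and 23.9 CPM. The rise lost its call without untreated replicate 1 (log2 0.29, adjusted p = 0.276) or either library of the 4 day group (adjusted p = 0.0806 and 0.101). The fall lost it under DESeq2 (adjusted p = 0.0941), without either 4 day library (0.124 and 0.140) and without GSK591 7 d replicate 2, where the log2 fold change was -0.25 (adjusted p = 0.463). The authors' deposited table for CEBPG at 4 days points the other way, as given further on.

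Of the 4 genes, 2, 3 and 2 were called higher at 2, 4 and 7 days of GSK591, beside 5.64%, 17.2% and 13.2% of all genes called. Between 2 and 4 days 0 of the 4 were called by edgeR, beside 3.39% of all genes called. In that step 1 of them, CEBPB, had an unadjusted p below 0.05, beside 3450 of all 22919 genes. Between 4 and 7 days CEBPG was called, beside 8.29%.

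MS023 alone raised CEBPB further at 2 days, to 109 and 108 CPM. The level was 65.7 and 74.8 CPM at 4 days and 42.7 and 43.9 CPM at 7 days. The log2 fold changes against untreated cells were 1.69 (SE 0.127, adjusted p = 1.89e-13, edgeR), 1.06 (SE 0.126, adjusted p = 1.60e-08) and 0.37 (SE 0.128, adjusted p = 0.0468). Here both steps down were called, by 0.63 from 2 to 4 days (log2 -0.63, adjusted p = 0.000643, edgeR) and by 0.70 from 4 to 7 days (log2 -0.70, adjusted p = 9.80e-05). CEBPB at 7 days passed by little, and the call was lost under DESeq2 (adjusted p = 0.0946) and without any 1 of the 4 libraries compared (adjusted p = 0.111, 0.286, 0.140 and 0.184, with log2 fold changes from 0.31 to 0.43). The step from 2 to 4 days lost its call without MS023 4 d replicate 1 (log2 -0.53, adjusted p = 0.0523). With total counts as the scaling neither step of CEBPB was called (log2 -0.56 and -0.42, adjusted p = 0.300 and 0.257).

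CEBPD stood at 102 and 100 CPM after 2 days of MS023, 73.5 and 85.0 CPM after 4 days and 96.3 and 86.6 CPM after 7 days. Its log2 fold changes against untreated cells were 1.14, 0.79 and 1.00 (SE 0.162, 0.161 and 0.161, adjusted p = 4.15e-05, 0.00148 and 0.000141, edgeR). The steps between these times were not called (adjusted p = 0.225 and 0.479). At 7 days CEBPD thus stood at 1.99-fold of untreated cells with either inhibitor, while CEBPB stood at 1.41-fold with GSK591 and 1.29-fold with MS023. With total counts the 7 day log2 fold changes with MS023 were 2.01 for CEBPD and 1.39 for CEBPB, where the median of all genes was 1.02.

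Against untreated cells CEBPA was called with MS023 at 2 and 4 days and in no other group. It stood at 108 and 125 CPM after 2 days and 135 and 141 CPM after 4 days, its highest group, and at 95.5 and 89.5 CPM after 7 days. The log2 fold change was 0.52 at 2 days (SE 0.164, adjusted p = 0.0441, edgeR), 0.77 at 4 days (SE 0.163, adjusted p = 0.00244) and 0.19 at 7 days (adjusted p = 0.481, not called). From 4 to 7 days CEBPA fell by 0.57 on the log2 scale (adjusted p = 0.0269, edgeR). The 2 day call of CEBPA was lost with the replicate block (adjusted p = 0.0501) and without any 1 of its 4 libraries (adjusted p from 0.0792 to 0.294), the 4 day call without untreated replicate 1 (log2 0.69, adjusted p = 0.0604), and the fall without any 1 of its 4 libraries (adjusted p from 0.0972 to 0.202) and with total counts (log2 -0.30, adjusted p = 0.455). CEBPG had means of 25.9, 31.2 and 26.5 CPM over the course of MS023 and was not called (adjusted p from 0.481 to 0.704, edgeR).

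With MS023, 3, 3 and 2 of the genes were called higher at 2, 4 and 7 days, beside 10.4%, 14.2% and 13.6% of all genes. From 2 to 4 days 1 was called lower, beside 4.91%, and from 4 to 7 days 2, beside 9.04%. The comparisons of both inhibitors with untreated cells share the same 2 control libraries, so their values are not independent of each other.

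Set against each other at the same dose and time, the inhibitors differed in CEBPB at 2 days. CEBPB was lower with GSK591 than with MS023 by 0.53 on the log2 scale (95% interval -0.78 to -0.29, adjusted p = 0.00596, edgeR). The 2 groups did not overlap, a pattern not counted over all genes. That call was lost without GSK591 2 d replicate 2 (log2 -0.47, adjusted p = 0.147) or either MS023 library (adjusted p = 0.0766 and 0.0613). This was 1 of 4 genes, beside 2.69% of all genes called. At 4 days 0 of 4 were called by edgeR, beside 6.03%. There CEBPA (log2 -0.39) and CEBPG (0.27) had an unadjusted p below 0.05, beside 4057 of all 22919 genes. At 7 days 0 of 4 were called, beside 9.38%, and none had an unadjusted p below 0.05. The 7 day intervals for GSK591 minus MS023 ran from -0.25 to 0.43 for CEBPA, -0.13 to 0.38 for CEBPB, -0.33 to 0.32 for CEBPD and -0.19 to 0.33 for CEBPG on the log2 scale.

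These 7 day values depend on the scaling more than any other. With total counts in place of TMM, the median of all genes moved to -1.07 between GSK591 and MS023 at 7 days, and CEBPA (-0.94), CEBPB (-0.91) and CEBPG (-0.95) followed it to a called difference of the other sign, while CEBPD was called at -1.04. The share of mitochondrial counts was 73.7% and 78.7% in the GSK591 libraries and 58.7% and 59.6% in the MS023 libraries, and its part in this shift was not tested.

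An inhibitor given together with Dex for 3 h gave no called difference from Dex alone in any of the 4 genes. With GSK591, CEBPB stood at 112 and 107 CPM and CEBPD at 80.7 and 95 CPM. With MS023, CEBPB stood at 134 and 109 CPM and CEBPD at 112 and 91.9 CPM. Against Dex alone the log2 differences were -0.11 and 0.04 for CEBPB (95% intervals -0.35 to 0.13 and -0.20 to 0.28) and -0.09 and 0.12 for CEBPD (-0.42 to 0.23 and -0.20 to 0.44). By edgeR 0 of 4 genes were called in both comparisons and 0 had an unadjusted p below 0.05, beside 0% of all genes called with GSK591 and 0.196% with MS023. CEBPA with MS023 and Dex stood at 89.2 and 60.7 CPM. Its log2 difference from Dex alone was -0.31 (adjusted p = 0.408), which became a called -0.63 without replicate 1 of that group (adjusted p = 0.0115).

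Against untreated cells both combined treatments raised CEBPB, by 3.25- and 3.62-fold with GSK591 and MS023 (adjusted p = 1.49e-14 and 7.86e-16, edgeR), and CEBPD, by 1.91- and 2.22-fold (adjusted p = 0.000250 and 1.84e-05). That is 2 of 4 genes in each, beside 11.9% and 12.0% of all genes. Between the combined treatments 0 of 4 genes were called by edgeR, with 0 at an unadjusted p below 0.05, beside 0.0480% of all genes.

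Dex after 7 days of inhibitor raised CEBPB again. After GSK591 it went from 48.1 and 46.2 CPM to 102 and 92.3 CPM at 15 min and 124 and 86.1 CPM at 3 h. The log2 fold changes against GSK591 alone were 1.04 (SE 0.126, adjusted p = 8.52e-08, edgeR) and 1.16 (SE 0.125, adjusted p = 9.91e-10). After MS023 CEBPB went from 42.7 and 43.9 CPM to 86.7 and 93.3 CPM at 15 min and 109 and 128 CPM at 3 h. Those log2 fold changes were 1.06 (SE 0.122, adjusted p = 2.29e-08, edgeR) and 1.45 (SE 0.122, adjusted p = 4.18e-13).

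CEBPD, which both inhibitors had already raised, responded to Dex after MS023. It went from 96.3 and 86.6 CPM with MS023 alone to 148 and 162 CPM at 15 min, its highest group, and 128 and 165 CPM at 3 h, with log2 fold changes of 0.76 (SE 0.154, adjusted p = 0.00606, edgeR) and 0.68 (SE 0.154, adjusted p = 0.00383). After GSK591 it went from 92.2 and 90.6 CPM to 115 and 113 CPM at 15 min and 121 and 80.8 CPM at 3 h, and neither change was called (log2 0.32 and 0.15, adjusted p = 0.375 and 0.671, edgeR). Whether the responses after MS023 and after GSK591 differ from each other was not tested. The 15 min call of CEBPD after MS023 was lost without replicate 2 of MS023 7 d (adjusted p = 0.137) or of the Dex group (0.114), and the 3 h call without the same replicates (log2 0.61 and 0.49, adjusted p = 0.0779 and 0.0898). With total counts neither was called (log2 0.62 and 0.67, adjusted p = 0.406 and 0.0751).

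**Figure D4:**
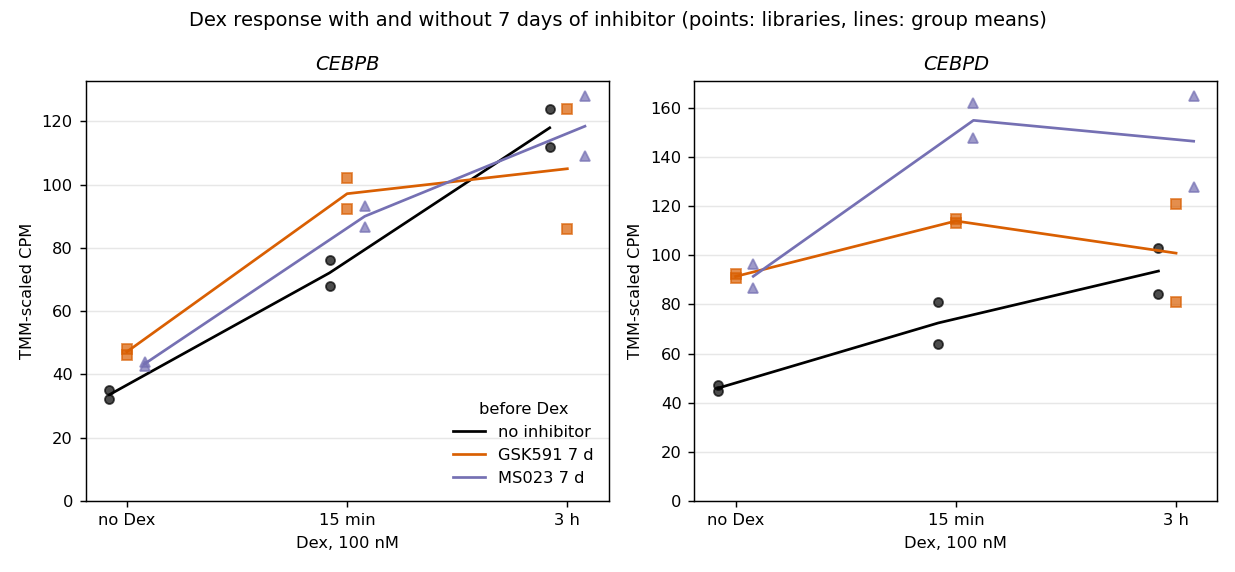
CEBPB and CEBPD in TMM-scaled CPM (y axis, linear from 0) without Dex and after 15 min and 3 h of Dex, in cells without inhibitor or after 7 days of GSK591 or MS023 (points are libraries, lines join group means). CEBPB ends between 86.1 and 128 CPM at 3 h in all 6 libraries, while CEBPD starts at a mean of 45.9 CPM without inhibitor and at means of 91.4 and 91.5 CPM after GSK591 and MS023.

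Whether the Dex response itself differed was tested as an interaction, the log2 response after inhibitor minus that without. At 3 h with GSK591 it was -0.66 for CEBPB (95% interval -1.01 to -0.30, unadjusted p = 0.000559, adjusted p = 0.112, edgeR) and -0.88 for CEBPD (-1.35 to -0.42, unadjusted p = 0.000718, adjusted p = 0.125). Neither passed the threshold over all genes. CEBPD passed under DESeq2 (adjusted p = 0.0288), in a fit of only the groups compared (0.0470) and with no filter on low counts (0.000238), and CEBPB with no filter (0.0444). The 2 libraries of GSK591 then Dex 3 h lay far apart, and without replicate 1 of that group the interactions were -0.95 for CEBPB (adjusted p = 0.00446) and -1.21 for CEBPD (0.00138). Without replicate 2 of the same group they were not called.

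With MS023 the 3 h interactions of CEBPB and CEBPD were -0.36 and -0.35 (adjusted p = 0.534 and 0.698, edgeR). At 15 min the interactions of CEBPB were -0.06 with GSK591 and -0.05 with MS023, and those of CEBPD -0.34 and 0.10 (adjusted p from 0.803 to 1.00). By edgeR 0 of 4 genes were called in the 4 interactions. At an unadjusted p below 0.05 stood CEBPG at 15 min and CEBPB, CEBPD and CEBPG at 3 h with GSK591, and CEBPB at 3 h with MS023. In these interactions 1569, 2035 and 2087 of all 22919 genes, in that order, had an unadjusted p below 0.05. Of all genes, 0.223% were called at 3 h with either inhibitor and 0.00436% at 15 min with either.

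CEBPG stood at 24.7 and 21.1 CPM at 15 min and 23.9 and 19.0 CPM at 3 h of Dex after GSK591, its lowest groups. Against untreated cells the 3 h group was lower by 0.39 on the log2 scale (log2 -0.39, SE 0.133, adjusted p = 0.0244, edgeR), and against 3 h of Dex alone by 0.49 (log2 -0.49, SE 0.133, adjusted p = 0.00789). Against GSK591 alone the differences of CEBPG were not called (log2 -0.29 and -0.37, adjusted p = 0.332 and 0.0743). The difference from untreated cells lost its call under DESeq2 (adjusted p = 0.0941), with total counts as the scaling (-0.20, adjusted p = 0.618), and without untreated replicate 2 or replicate 2 of the treated group (log2 -0.25 and -0.24, adjusted p = 0.330 and 0.339). That from Dex alone lost it with total counts (adjusted p = 0.277) and without replicate 2 of the treated group (log2 -0.34, adjusted p = 0.210).

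CEBPA was not called in any comparison of Dex after an inhibitor. Its libraries stood at 111 and 89.4 CPM and 110 and 75.1 CPM after GSK591 (15 min and 3 h), and at 92.5 and 108 CPM and 79.5 and 86.0 CPM after MS023. Against the inhibitor alone its log2 differences ran from -0.16 to 0.12 (adjusted p from 0.632 to 0.982, edgeR).

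Dex was called in 1 of 4 genes at 15 min and 1 of 4 at 3 h after GSK591, beside 2.09% and 9.85% of all genes, and in 2 of 4 at both times after MS023, beside 2.07% and 11.1%. Against untreated cells, GSK591 then Dex was called in 2 genes at 15 min and 3 at 3 h, beside 15.5% and 26.8%, and MS023 then Dex in 2 at both times, beside 17.2% and 21.9%. For CEBPB these 4 folds were 2.89 and 3.14 after GSK591 and 2.68 and 3.53 after MS023, and for CEBPD 2.49 and 2.20 after GSK591 and 3.38 and 3.19 after MS023.

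Against 3 h of Dex alone, the preceding inhibitor left CEBPB without a called difference, at log2 -0.16 with GSK591 (95% interval -0.41 to 0.07) and 0.01 with MS023 (-0.23 to 0.24). CEBPD was higher after MS023 by 0.64 on the log2 scale (SE 0.155, adjusted p = 0.00801, edgeR) and differed by 0.11 after GSK591 (95% interval -0.22 to 0.44, not called). The call after MS023 was lost without Dex 3 h replicate 1 (log2 0.50, adjusted p = 0.130) or replicate 2 of the treated group (0.46, adjusted p = 0.129). CEBPB without replicate 1 of GSK591 then Dex was called lower than with Dex alone, by 0.46 (log2 -0.46, adjusted p = 0.0232). In each of these comparisons 1 of 4 genes was called, CEBPG with GSK591 and CEBPD with MS023, beside 13.6% and 11.5% of all genes.

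Between the pretreatments at 3 h of Dex, CEBPD was lower with GSK591 than with MS023 by 0.53 (log2 -0.53, SE 0.155, adjusted p = 0.0259, edgeR), the only 1 of the 4 genes called, beside 11.1% of all genes. The groups did not overlap, at 121 and 80.8 CPM against 128 and 165 CPM, a pattern not counted over all genes. The call was lost in a fit of only these groups (adjusted p = 0.115) and without replicate 2 of either group (log2 -0.28 and -0.34, adjusted p = 0.337 and 0.291). CEBPB without GSK591 7 d then Dex 3 h replicate 1 was called here too (log2 -0.47, adjusted p = 0.0243).

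Ordered by level, the groups of CEBPB ran from MS023 with Dex at 122 ± 18.2 CPM (SD, n = 2), MS023 then Dex 3 h at 119 ± 13.0 and Dex 3 h at 118 ± 7.94, which overlapped in that order, down to MS023 7 d at 43.3 ± 0.817 and untreated cells at 33.6 ± 2.05. From GSK591 4 d downward no neighbours in the order of CEBPB overlapped. How often neighbours overlap in such orders of all genes was not counted. For CEBPD the order began with MS023 then Dex 15 min at 155 ± 10.0 CPM and MS023 then Dex 3 h at 146 ± 26.0, which overlapped, followed by GSK591 then Dex 15 min at 114 ± 1.38. The 11 groups of CEBPD from MS023 with Dex (102 ± 14.1 CPM) to Dex 15 min (72.5 ± 12.1 CPM) overlapped each with the next, and untreated cells at 45.9 ± 1.80 CPM stood apart below them.

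For CEBPA, MS023 4 d at 138 ± 4.27 CPM and MS023 2 d at 116 ± 11.9 CPM came first, without overlap between them or with the group next in order, although MS023 2 d overlapped 3 groups further down, MS023 then Dex at 15 min and GSK591 then Dex at 15 min and at 3 h. The 13 groups from GSK591 4 d at 105 ± 2.83 to MS023 with Dex at 74.9 ± 20.2 each overlapped with the next. For CEBPG, GSK591 4 d at 37.5 ± 0.593 CPM stood above GSK591 2 d at 32.8 ± 3.27, and GSK591 then Dex 3 h at 21.5 ± 3.47 stood last, overlapping GSK591 then Dex 15 min at 22.9 ± 2.58.

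Over the 15 group means, CEBPB and CEBPD varied together with Pearson's r = 0.657, while the other pairs of members had r between -0.305 and 0.165. Groups share libraries' scaling, and several share a treatment, so these values are descriptions. Among the 11113 genes averaging 5 CPM or more, the 3 most like CEBPB were BEST1 (r = 0.908), a chloride channel gene, PDK4 (0.895), a kinase that limits glucose oxidation, and MIR4530 (0.888). Those most like CEBPD were KLF9 (r = 0.906), a zinc finger factor known to be induced by glucocorticoids, RHOBTB3 (0.878) and its neighbour SPIDR (0.850). NHLRC1 (r = 0.873), SEMA4G (0.848) and TMEM220 (0.840) came closest to CEBPA, and UBE2M (0.905), SPTY2D1 (0.897) and GCFC2 (0.895) to CEBPG. All 12 values are over the 15 groups.

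Transcripts beside the members were read from a fixed list of neighbours, of which 9 of 10 were tested. At 3 h of Dex, SPIDR, LINC01270 (log2 1.14) and PEPD (0.52) were called higher, 3 genes beside 10.5% of all genes. PEPD lies 4263 bases from CEBPG. After 7 days of GSK591 1 was called higher and 1 lower, beside 13.2%. After 7 days of MS023 2 were called higher and 2 lower, among the latter CEBPZ (-0.75), beside 13.6%. SPIDR stood at 117 and 152 counts in untreated cells and was called higher at 15 min and 3 h of Dex (log2 0.62 and 0.69, adjusted p = 0.00904 and 0.000512, edgeR) and after 7 days of MS023 (0.57, adjusted p = 0.00315), but not after 7 days of GSK591 (0.36, adjusted p = 0.102). The authors' deposited tables give SPIDR 0.21, 0.08 and 0.03 where the counts called it, with adjusted p of 0.109, 0.615 and 0.835. CEBPA-DT, the divergent transcript that lies 292 bases from CEBPA, stood at 17.3 ± 0.884 CPM in untreated cells and was called in none of the 8 comparisons of single agents with untreated cells (log2 0.05 to 0.30, adjusted p from 0.182 to 0.969, edgeR). It was called higher for GSK591 then Dex 3 h (log2 0.40, adjusted p = 0.0427, edgeR), where the authors' deposited table gives 0.64 (adjusted p = 0.00478). CEBPB-AS1, at 17 and 23 counts in untreated cells, was called with GSK591 at 4 and 7 days (log2 1.12 and 0.98, adjusted p = 0.0101 and 0.0417), and its log2 fold change at 3 h of Dex was 0.64 (adjusted p = 0.258). In the authors' deposited tables CEBPB-AS1 did not pass at 4 or 7 days of GSK591 (0.21 and 0.19, adjusted p = 0.434 and 0.475). MCM4, a replication helicase gene on the same list, fell with both inhibitors at 7 days (log2 -1.41 with GSK591 and -0.94 with MS023).

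Among relatives and dimer partners of the bZIP class, 10 of 11 listed genes were tested. At 3 h of Dex DDIT3, which encodes the stress-induced inhibitory partner CHOP, was the only 1 called, lower (log2 -0.97, SE 0.291, adjusted p = 0.0217, edgeR), with a median of -0.20 over the list against -0.01 over all genes. That is 1 of 10 genes, beside 10.5% of all genes called. After 7 days of GSK591 1 was called, BATF2, higher (1.56, adjusted p = 0.00964), and after 7 days of MS023 0 were called, beside 13.2% and 13.6% of all genes. CEBPE, the granulocyte member of the family, had at most 1 count in each untreated library and was not tested.

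Of 12 listed regulators of C/EBP genes or proteins, all tested, 2 rose and 1 fell at 3 h of Dex. IL6R, the interleukin 6 receptor, rose by 1.34 and the pseudokinase gene TRIB3 by 0.88 on the log2 scale, while NR3C1, the glucocorticoid receptor gene, fell by 0.35 (adjusted p = 1.21e-08, 1.53e-08 and 0.0365, edgeR). After 7 days of GSK591 3 rose and 0 fell, all of them genes of the Tribbles family, in which TRIB1 and TRIB2 are known to direct CEBPA protein to degradation. These were TRIB3 (log2 0.46), TRIB1 (0.35) and TRIB2, which had 1 count in each untreated library against 8 and 6 and is given no fold. After 7 days of MS023 4 rose, TRIB1 (0.59) and TRIB3 (0.55) among them, and 2 fell, among them KLF15 (-0.97). So 3, 3 and 6 of 12 were called, beside 10.5%, 13.2% and 13.6% of all genes. The list medians were 0.04, 0.05 and 0.13 in these comparisons, beside -0.01, -0.00 and 0.01 over all genes.

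Acute phase genes, known targets of CEBPB and CEBPD, were tested for 9 of 16 listed. At 3 h of Dex 2 rose, FGA (log2 1.77) of fibrinogen and complement C3 (1.51), and 0 fell. After 7 days of GSK591 3 rose, C3 (2.62), FGA (1.42) and ceruloplasmin CP (0.80), and after 7 days of MS023 3 rose, FGA (2.67), FGG (2.64) and CP (1.37), with 0 lower in both. Their counts were small, at 22 and 24 for FGA, 10 and 14 for C3, 24 and 23 for CP and 5 and 1 for FGG in untreated cells. These are 2, 3 and 3 of 9 genes, where 10.5%, 13.2% and 13.6% of all genes were called. The list medians were 0.54, 0.38 and 0.76, beside the all-gene medians just given.

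Lung epithelial targets were tested for 5 of 9. SFTPC, a surfactant gene, rose at 3 h of Dex and at 7 days of GSK591 and of MS023 (log2 1.94, 1.44 and 1.59, from 5 and 7 counts in untreated cells), and ABCA3, a lamellar body lipid transporter, rose with Dex (0.92) and GSK591 (0.79). These 2, 2 and 1 were the genes called in the list, with medians of 0.48, 0.79 and 0.30. Of the lipid and adipocyte targets, tested for 5 of 10, 0 were called with Dex or MS023 and 1 with GSK591, the lipid droplet gene PLIN1 (0.94), with medians of 0.20, 0.09 and 0.33. For both lists the shares of all genes called were 10.5%, 13.2% and 13.6% with Dex, GSK591 and MS023.

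Inflammatory targets, tested for 5 of 8, moved both ways. At 3 h of Dex the chemokine genes CXCL8 (from 12 and 14 counts to 3 and 3) and CCL2 (log2 -1.54) fell and CSF3 (0.91) rose, with a median of -0.05. After 7 days of GSK591 CXCL8 rose (1.46, median of the list 0.35), and after 7 days of MS023 CCL2 (1.21) and PTGS2 (0.85) rose (median 0.85). The 3, 1 and 2 of 5 genes called stand beside the same shares of all genes. All these calls are at an adjusted p below 0.05 by edgeR over all genes.

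The authors' deposited tables compare the same 14 groups with untreated cells, but they rest on a separate count of reads, made with settings not given in the sources used here. The mean normalised count of CEBPA in the authors' deposited tables is 153, where the count table has 620 to 1975 per library, and that of SPIDR is 1570 against 117 to 460. The folds of the 2 sources therefore compare different counts of the same groups. In the authors' deposited tables CEBPB and CEBPD are higher in all 14 comparisons at an adjusted p below 0.05, as in the counts. Their log2 fold changes there ran from 1.11 to 2.82 for CEBPB and from 1.10 to 2.78 for CEBPD, against 0.37 to 1.85 and 0.66 to 1.76 from the counts. At 7 days of MS023 the authors' deposited table gives CEBPB 1.14, and at 7 days of GSK591 1.71, where the counts gave 0.37 and 0.49.

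CEBPA is higher in 8 comparisons of the authors' deposited tables and in 2 from the counts. The 8 include all 5 groups with MS023 for days, up to 1.69 at 2 days, and GSK591 for 2 and 7 days (0.74 and 0.86). CEBPG is lower in 4 and higher in 0 of the authors' deposited tables, at 4 and 7 days of GSK591 (-0.49 and -0.46) and 4 and 7 days of MS023 (-0.39 and -0.38). At 4 days of GSK591 the authors' deposited table thus has CEBPG lower (adjusted p = 0.00955) where the count table has it higher by 0.41. Over the 4 genes and 14 comparisons, 31 of 56 passed in both sources. Of these, 30 went in the same direction, and that 1 went in opposite directions. The comparisons share the untreated group, so these counts are not independent. Of all genes, 1.95% to 21.6% passed across the 14 comparisons in the authors' deposited tables and 1.26% to 26.8% in the counts. How far the sources match over all genes was not computed.

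**Figure D5:**
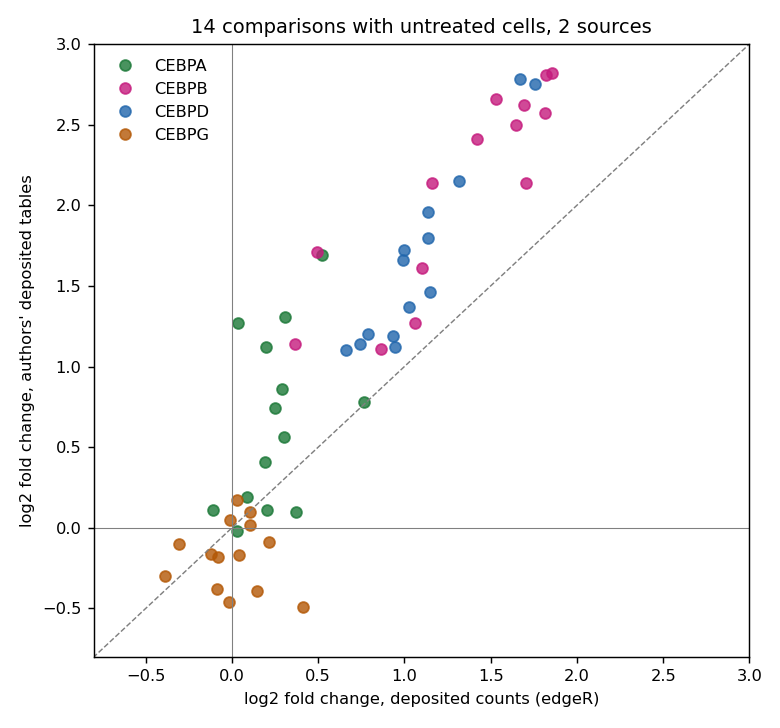
Log2 fold change against untreated cells in the deposited counts (x axis, edgeR) and in the authors' deposited tables (y axis) for 14 comparisons of 4 genes, with a dashed line of equal values. CEBPB and CEBPD lie above the line in every comparison, and CEBPG at 4 days of GSK591 lies at 0.41 and -0.49.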

How the data were processed

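The authors deposited a table of whole-number counts for 58780 genes in 30 PRO-seq libraries and 14 tables of comparisons with untreated cells. Per the submitters' processing notes, Subread and featureCounts 2.0.1 were used with build hg38. The aligner settings, the feature counted and the use of strand are not given in the sources used here. In the comparison tables, per the file headers, the authors give log2 fold changes with standard errors, p-values and adjusted p-values, and a mean signal per gene. These values were copied, not recomputed, and no per-sample column was left unused (0).

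Groups and replicate numbers came from the sample labels. The test was the quasi-likelihood F-test of edgeR 4.0.16 (limma 3.58.1, R 4.3.3) with TMM scaling and robust fitting, and with all 15 groups in 1 fit (15 residual degrees of freedom). The filter (filterByExpr, minimum count 10, minimum total 15) kept 22919 genes, over which p-values were adjusted by Benjamini-Hochberg in each of 36 comparisons, with a threshold of 0.05. The biological coefficient of variation was 10.6%. Each standard error was taken as the log2 change divided by the root of its F value, and intervals are at 95%. The test was also run on simulated data with known changes, whose outcome is not given here. Those data were drawn from the model and spread estimated here. They cannot show whether that model suits groups of 2 libraries. With 2 libraries a group, precision rests on the spread shared over groups. A depth of 8441211 to 13069598 counts gave the members 166 to 2231 counts per library. No molecular identifiers are mentioned in the labels.

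CPM were scaled by TMM, and CPM per kb used exon lengths of GENCODE 29. Likeness of genes is Pearson's r of log2 CPM (prior count 2) over group means, and the 3 highest per member are named.

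The members and gene lists were chosen with earlier results of these data known. Named genes are the members, FKBP5, TSC22D3 and PER1 as checks, and up to 3 genes per list with the largest change among those called at 3 h of Dex or 7 days of either inhibitor. SPIDR, CEBPA-DT and CEBPB-AS1 at other times, CEBPE and the cell markers were added for their position or role. Alternatives were DESeq2 size factors, total counts, no filter, DESeq2 1.42.0, only the groups compared, a replicate block, no mitochondrial or ribosomal RNA genes, and leaving out each library.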

Additional observations from a re-analysis of the deposited data

How the results depend on the processing

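All calls of CEBPB and CEBPD in the 14 comparisons with untreated cells kept their direction under the 7 alternative settings. With the replicate number as a block, 142 of 144 values of the 4 genes kept their direction and side of the threshold. The exceptions were CEBPD at 15 min of Dex (log2 0.66, adjusted p = 0.0812) and CEBPA at 2 days of MS023 (0.52, adjusted p = 0.0501). Whether the numbers pair the libraries is not stated in the labels. The deviations of same-numbered libraries correlated above 0.1 in 22 of 105 pairs of groups. Their median was 0.0214 and their range -0.451 to 0.487, so pairing among some of the groups cannot be told from these values.

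Scaling by total counts moved the median of all genes to 1.02 for MS023 at 7 days against untreated cells and to -1.07 between the inhibitors at 7 days, and changed 47 of 144 values, where the other settings changed 1 to 13. Under it CEBPG turned to 0.55 and 0.93 at 2 and 7 days of MS023 and 0.92 at 7 days of MS023 then Dex 3 h, all against untreated cells. It also turned CEBPA to -0.94, CEBPB to -0.91 and CEBPG to -0.95 between the inhibitors at 7 days. For MS023 then Dex 3 h against Dex 3 h it turned CEBPA to 0.67 and CEBPG to 0.66. Between GSK591 7 d then Dex 3 h and MS023 7 d then Dex 3 h it turned CEBPA to -0.63. CEBPA at 7 days of MS023 became called (1.21). CEBPB at 7 days of GSK591 (0.47) and CEBPD at 3 h of Dex after MS023 (0.67) lost their calls. CEBPA at 3 h of Dex after GSK591 moved to 0.13 and CEBPG after MS023 to -0.002.

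Elsewhere, CEBPB at 7 days of MS023 lost its call under DESeq2 (0.39), and CEBPA at 7 days of GSK591 gained one in a fit of the groups compared (0.31). The difference between the Dex 3 h responses after GSK591 and without it became called for CEBPB without the filter (-0.65) and for CEBPD without the filter (-0.88), in a fit of the groups compared (-0.90) and under DESeq2 (-0.90). CEBPG at 7 days of GSK591 moved to 0.006 with DESeq2 size factors and 0.006 under DESeq2, and at 3 h of Dex after MS023 to -0.012 without the filter. The cause was not tested.

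Leaving out 1 library at a time, in 30 refits, changed the call in 47 of 640 values. A further 74 values, not called with or without the library, changed sign. The ranges for Dex at 15 min were -0.07 to 0.13 for CEBPA, 0.48 to 0.82 for CEBPD and -0.02 to 0.24 for CEBPG. CEBPG at 3 h of Dex ran from -0.016 to 0.24. At 7 days of GSK591 CEBPB ran from 0.43 to 0.55 and CEBPG from -0.24 to 0.16, and at 7 days of MS023 CEBPB from 0.31 to 0.43 and CEBPG from -0.21 to 0.052. For 3 h of Dex after GSK591 the ranges were -0.40 to 0.15 for CEBPA, -0.18 to 0.41 for CEBPD and -0.56 to -0.15 for CEBPG, and after MS023 0.49 to 0.86 for CEBPD and -0.10 to 0.12 for CEBPG. The same difference in response after GSK591 ran from -0.95 to -0.42 for CEBPB and -1.21 to -0.62 for CEBPD, and that after MS023 from -0.23 to 0.026 for CEBPG.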
